A study of Mus musculus with 29 samples.

Results

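A set of 10 genes of helper, follicular helper and regulatory T cells was chosen by name, Cd4, Pdcd1, Icos, Cd28, Ctla4, Foxp3, Il21, Maf, Batf and Tnfrsf4, and 9 of these 10 had a row among the 13982 genes measured. The gene without a row, Il21, was not analysed here. RNA had been sequenced from 14 libraries of (NZBxNZW)F1 mice, a cross of New Zealand strains that develops lupus with anti-dsDNA antibodies and nephritis. Proteinuric mice, named here by their age, gave 4 kidney libraries (39, 36, 25 and 32 weeks), 3 libraries of renal tertiary lymphoid structures (TLS, 39, 36 and 25 weeks) and 3 lymph node libraries (39, 36 and 32 weeks). The remaining 4 libraries were lymph nodes, 3 from anti-dsDNA antibody-positive mice (28, 29 and 18 weeks) and 1 from a mouse labelled young (4 weeks). TLS were immune aggregates dissected by hand from the kidney. The kidney tissue compared with them came from the same kidneys, except that the 32-week kidney had no TLS library. An age shared between tissues marks the same animal.

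CD4+ helper T cells recognise peptides on MHC class II through the T-cell receptor, with CD4 as co-receptor, and need a further signal through CD28, which binds CD80 and CD86. CTLA-4 competes with CD28 for the same ligands and restrains T cells. Follicular helper T cells carry CXCR5, ICOS and PD-1 (encoded by Pdcd1), use the transcription factors BCL6, MAF and BATF, and help B cells in germinal centers, whereas regulatory T cells are defined by FOXP3. OX40, encoded by Tnfrsf4, is a co-stimulatory receptor of the TNF receptor family found on activated and regulatory T cells. In lupus these cells are known for their part in the help given to autoreactive B cells.

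On GRCm38, Cd28 (chr1:60716800-60773359), Ctla4 (chr1:60887000-60915832) and Icos (chr1:60977927-61000320) lie side by side on the plus strand of chromosome 1, within 283.5 kb. Pdcd1 lies further along the same chromosome on the minus strand (chr1:94038305-94052553). Cd4 lies at chr6:124864692-124888221, Foxp3 at chrX:7573644-7595245, Maf at chr8:115682942-115707794, Batf at chr12:85686669-85709087 and Tnfrsf4 at chr4:156013843-156016612. All 9 are protein-coding. Foxp3 overlaps Ccdc22 on the opposite strand, a gene that was also counted, and the strand setting of the counting was not given in the sources used here, so the reads of these 2 genes may not be fully separated.

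The RefSeq promoter windows (GRCm38.p6) of Pdcd1, Batf and Tnfrsf4 are shown because these 3 genes were higher in both immune tissues than in kidney and had a window to read. The 250 bases before each start were searched on both strands for the AP-1 and BATF motif TGANTCA and for the MAF core TGCTGA, and capitals would mark a match. Only bases outside annotated exons are printed, which leaves all 250 bases for Pdcd1 (chr1:94052554-94052803, minus strand), 199 for Batf (chr12:85686470-85686668, plus strand) and 84 for Tnfrsf4 (chr4:156013611-156013694, plus strand).
Pdcd1: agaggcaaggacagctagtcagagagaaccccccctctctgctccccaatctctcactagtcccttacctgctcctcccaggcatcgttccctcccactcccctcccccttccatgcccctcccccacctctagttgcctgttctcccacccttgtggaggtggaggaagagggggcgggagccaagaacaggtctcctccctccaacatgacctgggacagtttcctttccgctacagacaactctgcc
Batf: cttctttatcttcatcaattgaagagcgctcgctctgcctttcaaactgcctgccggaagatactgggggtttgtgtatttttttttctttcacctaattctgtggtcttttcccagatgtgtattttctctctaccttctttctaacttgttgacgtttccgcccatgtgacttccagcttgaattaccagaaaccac
Tnfrsf4: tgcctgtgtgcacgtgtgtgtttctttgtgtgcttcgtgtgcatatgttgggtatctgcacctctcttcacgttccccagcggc
None of these 3 windows, nor that of Ctla4, held either motif over its 250 bases. Of the 2 windows of Foxp3, the upstream one held 1 MAF core, on the minus strand. Among all 32851 windows of the same length, 6.75% held TGANTCA and 16.1% held TGCTGA. A match describes letters in a window and says nothing of binding.

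The libraries were shallow, with between 343825 and 443379 reads each. Ribosomal RNA took 0.663% to 55.9% of the reads, with the largest shares in the kidney of the 32-week mouse (55.9%), the proteinuric lymph node of the 39-week mouse (32.0%) and the TLS of the 25-week mouse (22.2%). The deposited values were reads plus 1 divided by a size factor, from which the reads were recovered. Below, normalized reads are reads divided by the size factor, and 3 reads, the level that a count of 0 still allows and here called the floor, were worth between 2.36 and 5.32 normalized reads. The 9 kidney tubule and podocyte markers summed to 5866 to 18091 normalized reads in kidney, 1657.7 to 7479.9 in TLS and 0 to 1.89 in all lymph nodes, so every TLS library held kidney RNA. The 4 CD3 chain genes (Cd3d, Cd3e, Cd3g and Cd247) had 0, 0, 2 and 8 reads in the kidney libraries, 58 to 113 in TLS and 144 to 367 in the lymph nodes.

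The 9 genes were near or at 0 in kidney tissue, with the exception of Maf, and all 9 were read in at least 1 TLS library and in every tissue group of the lymph nodes. No read of Pdcd1, Icos, Cd28, Ctla4, Foxp3 or Tnfrsf4 was found in any of the 4 kidney libraries. Cd4 and Batf had 2 and 3 reads, both in the kidney of the 36-week mouse. The summed normalized reads of the 9 genes were 9.27 to 12.4 in kidney, 48.7 to 100.9 in TLS, 104.3 to 154.4 in proteinuric lymph nodes, 128.5 to 161.7 in antibody-positive lymph nodes and 129.8 in the young lymph node.

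**Figure D1:**
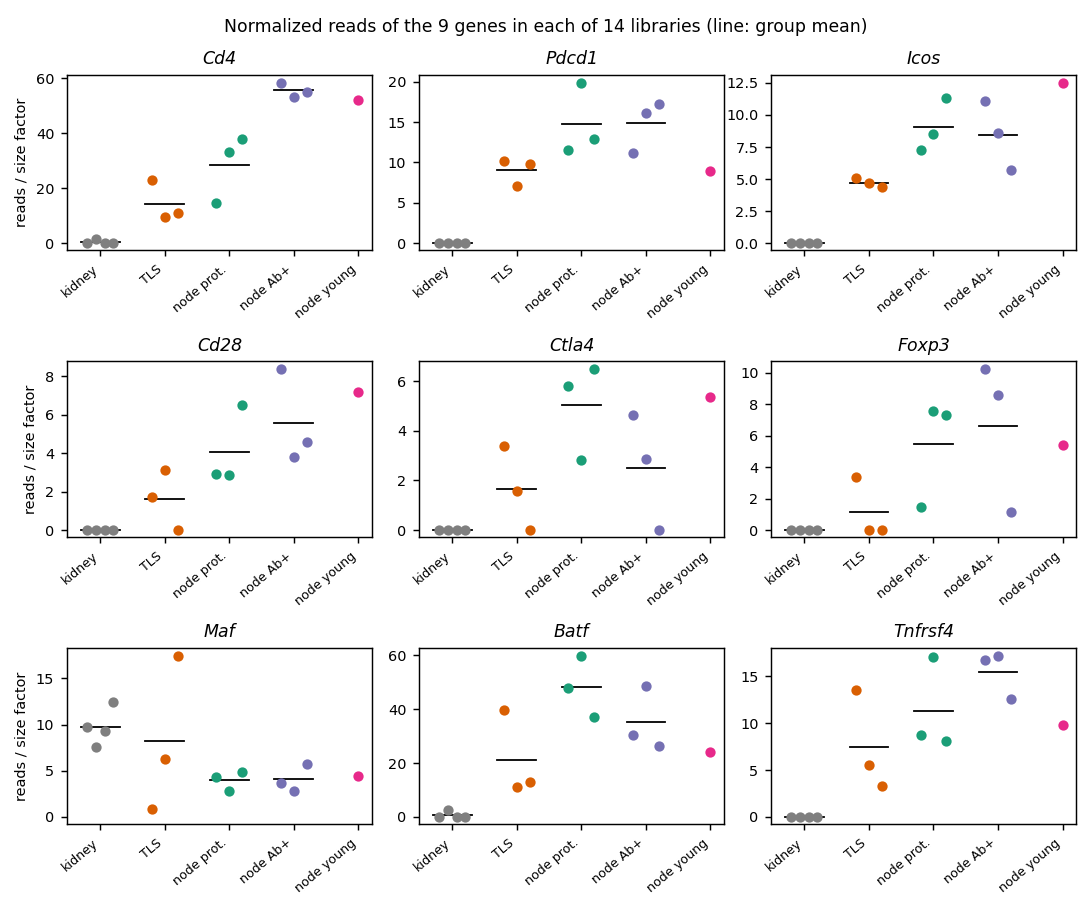
Normalized reads (reads divided by the size factor, linear axes that differ between panels) of the 9 genes, 1 point for each of the 14 libraries, in the order of the libraries in the text within kidney, TLS, proteinuric (node prot.), antibody-positive (node Ab+) and young lymph node, with a line at the group mean. The kidney points of all genes but Maf lie at or close to 0, and Maf is the only panel in which the mean is highest in kidney (9.75).

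Cd4, the co-receptor itself, had 27, 12 and 10 reads in the TLS of the mice of 39, 36 and 25 weeks and 10, 35 and 47 reads in the proteinuric lymph nodes at 39, 36 and 32 weeks, and all values below follow this order. The antibody-positive lymph nodes at 28, 29 and 18 weeks held 63, 56 and 48 reads, and the young lymph node 58 (95% Poisson interval 44.0 to 75.0). TLS and proteinuric lymph nodes overlapped, since the highest TLS library (22.9 normalized reads) lay above the lowest proteinuric lymph node (14.5 normalized reads), both from the 39-week mouse. The antibody-positive lymph nodes lay close together, at 55.6 ± 2.60 normalized reads (SD, n = 3), and above all proteinuric ones, at 28.6 ± 12.4 normalized reads (SD, n = 3).

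The 2 inducible receptors of follicular helper T cells were read in every TLS and lymph node library. Pdcd1, the inhibitory receptor PD-1, had 12, 9 and 9 reads in the 3 TLS libraries, 8, 21 and 16 in the proteinuric lymph nodes, 12, 17 and 15 in the antibody-positive ones and 10 in the young one. Icos, a co-stimulatory receptor of the CD28 family, had 6, 6 and 4 reads in TLS, 5, 9 and 14 in proteinuric, 12, 9 and 5 in antibody-positive and 14 in young lymph nodes. Both genes were tight in TLS, at 9.02 ± 1.70 normalized reads for Pdcd1 and 4.72 ± 0.363 for Icos (SD, n = 3), and the TLS libraries lay below all proteinuric lymph nodes (14.8 ± 4.45 and 9.03 ± 2.09 normalized reads, SD, n = 3).

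Cd28, Ctla4 and Foxp3 were close to the floor. The constitutive receptor gene Cd28 had 2, 4 and 0 reads in TLS, 2, 3 and 8 in proteinuric, 9, 4 and 4 in antibody-positive and 8 in young lymph nodes. Its inhibitory relative Ctla4 had 4, 2 and 0 reads in TLS, 4, 3 and 8 in proteinuric, 5, 3 and 0 in antibody-positive and 6 in young lymph nodes. For both, only 1 of 3 TLS libraries rose above 3 reads. Foxp3, the defining factor of regulatory T cells, was read in 1 of 3 TLS libraries, with 4 reads in the 39-week mouse and 0 in the others. The lymph nodes had 1, 8 and 9 reads of Foxp3 in proteinuric mice, 11, 9 and 1 in antibody-positive mice and 6 in the young mouse, so that 1 library of each replicated lymph node group was at 1 read. Pooled, Foxp3 was 5.09-fold higher in proteinuric lymph node than in TLS (95% counting interval 1.68 to 20.7), on 18 and 4 reads. This interval leaves out the spread between mice, and at 39 weeks TLS was higher (3.39 against 1.45 normalized reads). The same pooled ratio was 2.825 for Ctla4, 2.45 for Cd28, 2.20 for Batf, 2.12 for Cd4 and 1.98 for Icos. It was 1.695 for Pdcd1, 1.48 for Tnfrsf4 and 0.54 for Maf. The counting intervals of Ctla4, Batf, Cd4, Icos and Pdcd1 also lay above 1.

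Batf, an AP-1 family factor used by several helper subsets and by B cells, was the most abundant of the 9 genes per length in every TLS and lymph node group. It had 47, 14 and 12 reads in TLS, 33, 63 and 46 in proteinuric, 33, 51 and 23 in antibody-positive and 27 in young lymph nodes. TLS ranged widely, with 39.9 normalized reads in the 39-week mouse against at most 13.1 in the others, and the TLS of the 39-week mouse was the only one to reach the proteinuric lymph nodes (37.2 to 59.7 normalized reads). Tnfrsf4 had a similar spread, with 16, 7 and 3 reads in TLS, 6, 18 and 10 in proteinuric, 18, 18 and 11 in antibody-positive and 11 in young lymph nodes. Here too the TLS of the 39-week mouse was highest (13.6 normalized reads against 5.50 and 3.27).

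Maf, a factor of follicular helper and other T cells that is also transcribed outside the immune system, had its highest group mean in kidney. It had 11, 9, 8 and 7 reads in the kidneys at 39, 36, 25 and 32 weeks, 1, 8 and 16 in TLS, 3, 3 and 6 in proteinuric, 4, 3 and 5 in antibody-positive and 5 in young lymph nodes. All kidneys (9.75 ± 2.00 normalized reads, SD, n = 4) lay above all lymph nodes of proteinuric mice (4.02 ± 1.05, SD, n = 3), and the TLS libraries spanned the whole range, from 0.848 to 17.4 normalized reads. Across the TLS libraries Maf had the order of the kidney markers, whose sum was 1657.7 normalized reads at 39 weeks, 4105.8 at 36 weeks and 7479.9 at 25 weeks, while the CD3 chains had the opposite order (113, 84 and 58 reads). The 25-week TLS (17.4) lay above every kidney in Maf (7.59 to 12.4 normalized reads). Its kidney markers were fewer than those in the kidney of the same mouse (18091). Among the kidneys, Maf did not have the order of the markers. The part of kidney RNA in the Maf reads of TLS was not tested. In the lymph nodes, with the kidney markers at 0 to 2 reads, Maf was still read in each library.

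**Figure D2:**
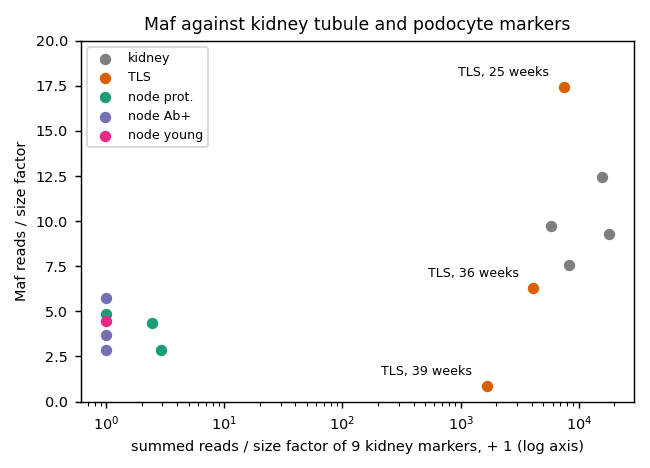
Maf (y axis, reads divided by the size factor) against the summed reads divided by the size factor of 9 kidney tubule and podocyte markers plus 1 (x axis, log scale), 1 point a library. The lymph nodes sit at the left with 2.84 to 5.74 normalized reads of Maf, and the 3 TLS libraries spread from 0.848 in the 39-week mouse to 17.4 in the 25-week mouse.

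Compared per length of annotated exons, as normalized reads per kilobase, the proteinuric lymph nodes had Batf first (34.3 ± 7.99), then Tnfrsf4 (8.26 ± 3.67), Pdcd1 (7.67 ± 2.31) and Cd4 (7.08 ± 3.08), which differed by less than their SD (n = 3). Icos (2.63 ± 0.609) and Ctla4 (2.16 ± 0.82895) followed, also within their spread, and Foxp3 (1.19 ± 0.755), Cd28 (0.665 ± 0.340) and Maf (0.487 ± 0.127) were lowest. In TLS the order began in the same way, with Batf at 15.2 ± 11.4, Tnfrsf4 at 5.46 ± 3.97, Pdcd1 at 4.67 ± 0.879 and Cd4 at 3.57 ± 1.83 normalized reads per kilobase. Batf was above Tnfrsf4 in each TLS library, and Tnfrsf4, Pdcd1 and Cd4 overlapped. The antibody-positive lymph nodes differed in that Cd4 stood second, at 13.8 ± 0.644, after Batf at 25.0 ± 8.36.

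To ask how far these genes mark the TLS within the kidney, TLS were compared with kidney tissue by limma on log2(value + 1) over 7382 genes. Of the 6 members with enough signal to be tested, 5 were higher in TLS, where 14.7% of all genes tested were called, 8.62% as higher in TLS and 6.07% as higher in kidney. Genes entered at a mean value of 5 or more over the 10 libraries of kidney, TLS and lymph node. These 5 members had mean values of at most 1.80 in kidney, so they entered only through TLS and lymph node. The filter thus partly set the count of 5 of 6, and with no filter 5 of 9 passed. Batf was higher by 2.92 ± 0.43 (log2 fold change ± SE, adjusted p = 0.000853), Cd4 by 2.61 ± 0.40 (adjusted p = 0.00102), Pdcd1 by 2.34 ± 0.31 (adjusted p = 0.000351), Tnfrsf4 by 1.98 ± 0.42 (adjusted p = 0.00777) and Icos by 1.63 ± 0.37 (adjusted p = 0.0103). The 1 added to each value understates such changes for genes near 0. Against the floor of 3 reads over the 4 kidneys, Pdcd1 was at least 11.1-fold, Tnfrsf4 at least 9.63-fold and Icos at least 5.93-fold higher in TLS. These minima treat only the kidney side, and the counting error of the 30, 26 and 16 TLS reads would lower them. The pooled ratio was 27.2 for Cd4 (95% counting interval 7.14 to 231.1) and 27.0 for Batf (8.89 to 134.1). Maf differed by -0.64 (95% interval -1.77 to 0.49, adjusted p = 0.461). Without the TLS of the 39-week mouse the number of DE genes fell from 1084 to 534, and Tnfrsf4 was no longer called (log2 fold change 1.55, adjusted p = 0.0591 with limma). The other 4 calls held without each library in turn. Without the kidney of the 25-week mouse there were 692 DE genes.

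For the members below the filter, Cd28, Ctla4 and Foxp3, a fit with no filter called none of the 3 between TLS and kidney (8.7% of 13467 genes called), with log2 fold changes of 0.64, 0.64 and 0.34. Against the same kidney floor, the pooled reads in TLS were at least 2.22-fold higher for Cd28 and for Ctla4 and at least 1.48-fold higher for Foxp3. These bounds treat only the kidney side, and rest on 6 reads each of Cd28 and Ctla4 and on 4 reads of Foxp3. The Foxp3 reads came from the TLS of the 39-week mouse alone. With the counting error of the TLS reads, no minimum fold holds for any of the 3 genes. Without the TLS of the 39-week mouse and with no filter, the Foxp3 difference changed sign (0.14 for kidney minus TLS). In bulk tissue, fewer cells of a type and less RNA per cell cannot be told apart.

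Between proteinuric lymph node and kidney, the same 5 of 6 members were DE and higher in lymph node, in a comparison where 43.8% of all genes were called, 20.8% as higher in lymph node and 23% as higher in kidney. This comparison shares its kidney libraries and its filter with the previous one. The filter partly set the count of 5 of 6 here too. The log2 fold changes were 4.22 ± 0.43 for Batf, 3.51 ± 0.40 for Cd4, 2.95 ± 0.31 for Pdcd1, 2.58 ± 0.42 for Tnfrsf4 and 2.37 ± 0.37 for Icos (± SE, largest adjusted p = 0.000322 in limma). All 5 calls held without each library in turn. With no filter, where 31.8% of 13467 genes were called, Foxp3 (1.71, adjusted p = 0.00574), Ctla4 (1.69, adjusted p = 0.00216) and Cd28 (1.48, adjusted p = 0.00419) were also higher in lymph node, so 8 of 9 members passed in this fit. Taken without their own counting error, their pooled levels were at least 7.53-fold, 6.28-fold and 5.44-fold above the kidney floor. Maf was lower in lymph node by a difference of -0.97 that did not pass (95% interval -2.10 to 0.16, adjusted p = 0.153), and it passed with only these 2 tissues in the fit (adjusted p = 0.0221) or without the TLS of the 39-week mouse (adjusted p = 0.042). For each of the 6 members the values of the 2 groups did not overlap, which held for 48.8% of all genes.

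The comparison of lymph node with TLS addresses whether the aggregates in the kidney carry these transcripts at the level of a lymphoid organ of proteinuric mice. None of the 6 members passed, where limma called 10.6% of all genes, 1.69% as higher in lymph node and 8.87% as higher in TLS. At an unadjusted p under 0.05 with limma it was 1 of 6 members, against 1671 of all 7382 genes tested. The edgeR quasi-likelihood test and DESeq2 called 0 of 6 as well. The estimates were above 0 for 5 members, with lymph node above TLS on the log2 scale by 1.30 for Batf (95% interval 0.30 to 2.30, adjusted p = 0.102), 0.91 for Cd4 (-0.01 to 1.83, adjusted p = 0.230), 0.73 for Icos (-0.12 to 1.59, adjusted p = 0.3003), 0.61 for Pdcd1 (-0.10 to 1.32, adjusted p = 0.297) and 0.60 for Tnfrsf4 (-0.38 to 1.58, adjusted p = 0.478). For Maf it was -0.32 (-1.53 to 0.88, adjusted p = 0.789). The intervals are wide and include differences above 1 on the log2 scale for 5 of the 6 genes in the direction of lymph node. Pdcd1 and Icos did not overlap between the 2 tissues, which held for 26.8% of all genes.

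This result depended on the TLS of the 39-week mouse, the TLS with the most T-cell and the fewest kidney reads. Without it, Batf was higher in lymph node (log2 fold change 1.83, adjusted p = 0.0124 with limma). That fit called 976 of 7382 genes, 247 as higher in lymph node. With no filter, all libraries together gave 6.76% of 13467 genes and none of the 9 members. Without this TLS and with no filter, Foxp3 (1.85, adjusted p = 0.0139) and Ctla4 (1.38, adjusted p = 0.0429) were higher too. There 1114 of 13467 genes were called, 350 as higher in lymph node. Foxp3 also passed with no filter when the proteinuric lymph node of the 39-week mouse, which held 1 read of it, was left out (1.79, adjusted p = 0.0363). In that fit 726 of 13467 genes were called, 192 as higher in lymph node. With all libraries and no filter the difference of Foxp3 was 1.37 (adjusted p = 0.0868). When all 7 lymph node libraries were taken as one group, Cd4 (1.46, adjusted p = 0.0109 with limma) and Icos (0.74, adjusted p = 0.0404) were higher in lymph node. This fit called 1335 of 7382 genes, 392 as higher in lymph node and 943 as higher in TLS. The added lymph nodes were antibody-positive or young, all above every proteinuric one in normalized reads of Cd4. Tissue is therefore mixed with disease state, age and extraction kit in this fit.

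**Figure D3:**
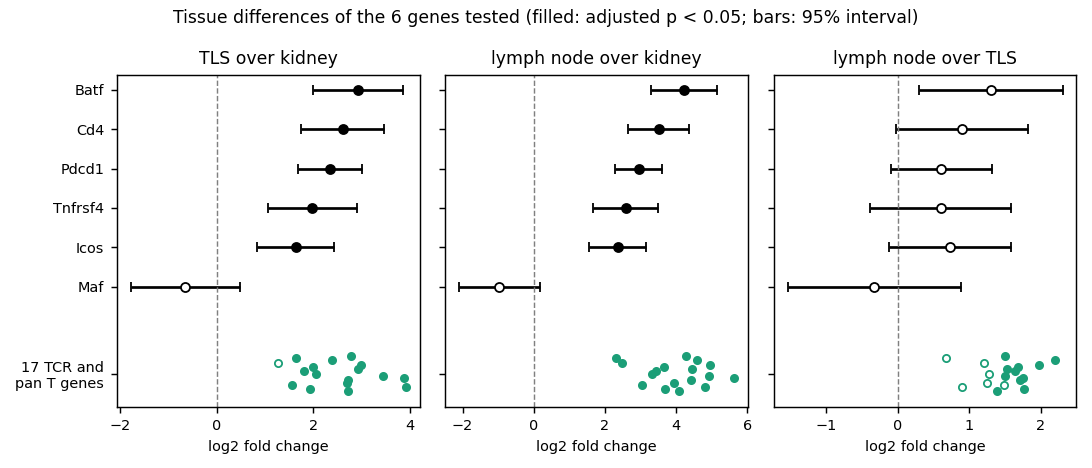
Log2 fold changes (x axis, log2 of value plus 1) of TLS over kidney, lymph node over kidney and lymph node over TLS in proteinuric mice, for the 6 members tested (black, bars show 95% intervals) and for 17 T-cell receptor and pan T-cell genes (green, 1 point a gene, spread vertically for sight). Filled points passed at an adjusted p under 0.05, which 5, 5 and 0 of the members and 16, 17 and 11 of the 17 genes did.

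Genes that all T cells share were set beside the members. Of 17 tested genes of the T-cell receptor complex and pan T-cell list, 16 were higher in TLS than in kidney (median log2 fold change 2.69, members 2.16, all genes -0.01) and 17 were higher in lymph node than in kidney (median 4.09, members 2.77, all genes 0.05). Between lymph node and TLS, 11 of the 17 were higher in lymph node, with a median of 1.502 against 0.67 for the members and 0.04 for all genes. The largest differences were in Tcf7, a factor of naive and memory T cells (2.19, adjusted p = 0.00676 with limma), Lat, an adaptor of the T-cell receptor (1.97, adjusted p = 0.0246), and Cd3e (1.76, adjusted p = 0.0166). With the mouse as a replicate block the count was 4, with edgeR 3 and with DESeq2 6. It was 13 without the TLS of the 39-week mouse and between 3 and 5 without any other single TLS or lymph node library, while the median ranged from 1.38 to 1.93. Tcf7 kept its call without each library and with the block (adjusted p = 0.0321) but not with edgeR (0.0589), and Lat and Cd3e lost theirs with the block (0.0818 and 0.0825). The difference between this list and the members was not tested.

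Of 4 CD8 and cytotoxic genes tested, 3 were higher in lymph node than in TLS, namely Gzma, a granzyme (log2 fold change 2.27, adjusted p = 0.00311 with limma), and the CD8 chains Cd8a (2.12, adjusted p = 0.00219) and Cd8b1 (1.72, adjusted p = 0.0146). Gzma and Cd8a kept their calls without each library in turn, and all 3 kept them with the mouse as a replicate block, where the largest adjusted p was 0.0428. Cd8b1 lost its call without the TLS of the 25-week mouse or the lymph node of the 39-week or 36-week mouse (adjusted p at most 0.0622) and with DESeq2 (0.0587). Both CD8 chains were also higher in TLS than in kidney (Cd8a 1.54 and Cd8b1 1.96), Cd8a not without the TLS of the 39-week mouse (adjusted p = 0.0587 with limma). Summed CD8 reads were 25, 15 and 5 in TLS and 38, 69 and 52 in the proteinuric lymph nodes.

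Relative to the CD3 chains, TLS and proteinuric lymph nodes held the members at overlapping levels. For every 100 CD3 chain reads, TLS held 18.5 ± 4.92 reads of Cd4, 12.3 ± 2.80 of Pdcd1, 6.45 ± 0.995 of Icos, 9.22 ± 4.56 of Tnfrsf4 and 26.3 ± 13.4 of Batf (SD, n = 3). The proteinuric lymph nodes held 16.9 ± 9.26, 8.403 ± 2.75, 5.25 ± 2.08, 6.34 ± 2.78 and 26.9 ± 5.47 of the same genes (SD, n = 3). Cd28, Ctla4 and Foxp3 came to 2.18 ± 2.41, 1.97 ± 1.81 and 1.18 ± 2.04 in TLS and to 2.42 ± 1.63, 2.89 ± 1.36 and 3.25 ± 2.23 in proteinuric lymph nodes, also overlapping. The antibody-positive lymph nodes held 20.5 ± 3.05 of Cd4, 5.64 ± 2.09 of Pdcd1, 3.02 ± 0.529 of Icos, 5.66 ± 0.979 of Tnfrsf4 and 13.1 ± 5.37 of Batf (SD, n = 3). Cd28, Ctla4 and Foxp3 came to 1.96 ± 0.475, 0.830 ± 0.728 and 2.29 ± 1.575 there. Among these members the mean of Cd4 alone lay above that in proteinuric lymph nodes. The CD3 chain sum of the antibody-positive lymph nodes, the denominator, was itself higher, at 237.5 to 340.2 normalized reads against 150.5 to 208.7 in proteinuric lymph nodes. Kidney was left out, since no kidney library reached 10 CD3 reads. These ratios were not tested, and Batf and Cd4 are also transcribed outside T cells.

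**Figure D4:**
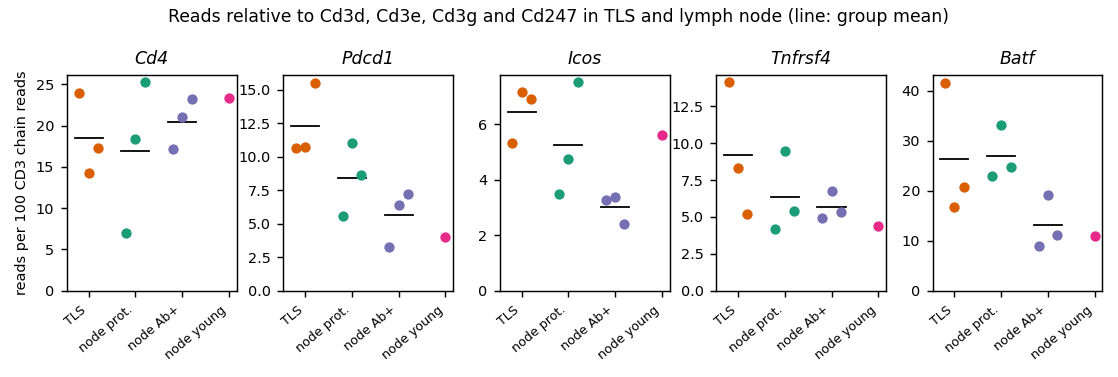
Reads of 5 members for every 100 reads of Cd3d, Cd3e, Cd3g and Cd247 together (y axes, linear, from 0), 1 point a library, with a line at the group mean, in TLS, proteinuric (node prot.), antibody-positive (node Ab+) and young lymph node. TLS and proteinuric lymph nodes overlap in all 5 panels, with Icos for example at 5.31 to 7.14 and 3.47 to 7.53.

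To ask whether the lymph node changes with disease state, antibody-positive lymph nodes were compared with proteinuric ones over 6810 genes. Limma called 0 genes (215 at an unadjusted p under 0.05), edgeR 0 and DESeq2 13, and none of the 8 members tested passed in any of these. Cd4 had the largest difference among the members and was higher in antibody-positive lymph nodes by 1.00 (95% interval 0.15 to 1.85, unadjusted p = 0.0262, adjusted p = 0.998 in limma), with all 3 libraries above all 3 proteinuric ones, which held for 8.58% of all genes in either direction. Leaving out single libraries moved the Cd4 difference between 0.62, without the proteinuric lymph node of the 39-week mouse, and 1.24. Batf differed by -0.46 (-1.23 to 0.32), Tnfrsf4 by 0.44 (-0.31 to 1.19) and Cd28 by 0.30 (-0.58 to 1.19). For Pdcd1 (0.01, -0.70 to 0.71), Maf (-0.01, -0.92 to 0.90), Icos (-0.10, -0.80 to 0.59) and Foxp3 (0.10, -1.21 to 1.42) the intervals covered changes in both directions. Ctla4, below the filter, differed by -0.76 with no filter (adjusted p = 0.997). The antibody-positive lymph nodes were extracted with miRNeasy and the proteinuric ones with TRIzol. They also came from younger mice, of 28, 29 and 18 weeks against 39, 36 and 32 weeks. Disease state, kit and age cannot be told apart.

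Other follicular helper genes were sparse. Of 14 listed, 12 had a row and 6 were tested, of which 3 were higher in TLS than in kidney and the same 3 were higher in lymph node than in kidney. They were Cxcr5, the receptor that leads B cells and follicular helper T cells into follicles (3.21 in TLS, 3.69 in lymph node), Btla, an inhibitory receptor of B and T cells (2.59 and 3.91), and Slamf6, a receptor of the SLAM family (1.80 and 2.52). Cxcr5 had 22, 17 and 21 reads in TLS, 10, 38 and 38 in proteinuric lymph nodes and 0 in every kidney. Of the 6, Btla alone was higher in lymph node than in TLS (1.31, adjusted p = 0.0264 with limma), and it was not with the mouse as a replicate block (adjusted p = 0.123) or without any one of the TLS of the 39-week and 25-week mice and the lymph nodes of the 39-week and 32-week mice (adjusted p at most 0.106). Bcl6, the lineage factor, had 4, 7 and 4 reads in TLS and 1, 7 and 15 in proteinuric lymph nodes. Cd40lg, the ligand through which helper T cells activate B cells, had at most 2 reads in any TLS or proteinuric lymph node and 8, 5 and 2 in the antibody-positive ones.

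Of 13 regulatory T-cell genes listed, 8 had a row and 5 were tested. Lag3, an inhibitory receptor, was higher in TLS than in kidney (1.75, adjusted p = 0.00891 with limma), and Nt5e, the ecto-nucleotidase CD73, was lower (-1.42, adjusted p = 0.0153), both only with the TLS of the 39-week mouse in the fit (adjusted p = 0.0633 and 0.0842 without it). In lymph node, 3 were higher than in kidney, among them Tnfrsf18, the receptor GITR (2.94), and Lag3 (2.83), and Nt5e was again lower (-2.43). Nt5e had 41, 29, 16 and 9 reads in kidney and 6, 13 and 7 in TLS, and it is also known from kidney cells. Tnfrsf18 had 17, 4 and 1 reads in TLS, highest in the 39-week mouse as for Foxp3. The TLS of that mouse was also highest for genes outside this list, such as Cd4, Batf, Cxcr3 and Mzb1, though not for Maf. None of the 5 passed between lymph node and TLS.

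Among lineage factors and cytokines of helper T cells, 7 of the 20 listed were tested. Cxcr3, a chemokine receptor of type 1 helper and other T cells, had 42, 21 and 10 reads in TLS and 0 in every kidney, and was higher by 3.28 in TLS and by 3.73 in lymph node. Irf4, a factor of activated lymphocytes and plasma cells (2.49 and 3.25), and Ccr6, a chemokine receptor of B cells and some T cells (1.72 and 2.67), were higher in both as well, Ccr6 in TLS not without the TLS of the 39-week or 36-week mouse (adjusted p at most 0.0959 with limma). In all, 3 of the 7 were higher in TLS than in kidney, 4 were higher in lymph node than in kidney and 0 passed between lymph node and TLS. Tbx21, the type 1 factor, was at 1 to 3 reads in TLS and 2 to 8 in proteinuric lymph nodes, Gata3, the type 2 factor, at 4 to 6 and 0 to 3.

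The partners of the members were read in the same tissues. Of 5 ligands and receptors tested, 4 were higher in TLS than in kidney and 5 in lymph node than in kidney. Il2rg, the common chain of the receptors for IL-2 and IL-21, was higher by 3.14 in TLS and 4.16 in lymph node, Il21r, the IL-21 receptor, by 2.84 and 4.45, and Cd86, a ligand of CD28 and CTLA-4, by 1.81 and 2.61. Il21r was the 1 gene of the 5 that was higher in lymph node than in TLS (1.61, adjusted p = 0.0115 with limma), with 35, 19 and 9 reads in TLS and 31, 65 and 71 in proteinuric lymph nodes. With the mouse as a replicate block its adjusted p was 0.0591, and it also missed the threshold without the TLS of the 25-week mouse or the lymph node of the 36-week or 32-week mouse (adjusted p at most 0.0555). Cd80, the second ligand, had 1 or 2 reads in each TLS library and 2 to 4 in proteinuric lymph nodes.

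Marker lists of the other cells moved with the members. All 7 B-cell markers were higher in TLS than in kidney (Cd79a 4.85, Cd79b 4.38) and in lymph node than in kidney. Pax5 lost its call in TLS without the TLS of the 39-week or 25-week mouse (adjusted p at most 0.0952 with limma) and in lymph node without that of the 32-week mouse (0.0532). Of 5 plasma cell markers 4 were higher in TLS (Mzb1 4.94) and 5 in lymph node, and of 8 macrophage and dendritic cell markers 4 (Itgax 2.38) and 6. Of those higher in TLS, 2 of the 4 plasma cell and 1 of the 4 macrophage markers kept their calls without each library in turn. Xbp1 and C1qb also lost theirs with the mouse as a replicate block (adjusted p = 0.0582 and 0.0587), and C1qa, C1qc and Sdc1 without several single libraries (adjusted p at most 0.169). None of these 3 lists had a gene that passed between lymph node and TLS. Kidney markers went the other way, with 3 of 8 lower in TLS than in kidney (among them Slc34a1 -2.36 and Slc12a3 -2.20), and 8 and 7 of 8 lower in lymph node than in kidney and TLS. Batf, Icos and Tnfrsf4 are also used by cells other than T cells, and the part of B cells and myeloid cells in their reads was not tested.

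The 5 members that were higher in both immune tissues followed each other over the 14 libraries, with Pearson correlations of log2(value + 1) between 0.92 and 0.96, while Maf was negatively related to each of them (-0.56 to -0.74). These points share the tissue difference and describe it. Among 7399 genes, the pattern of Cd4 was closest to Dock2 (r = 0.99), Il2rb (0.98) and Trbv13-1 (0.98), that of Pdcd1 to Pla2g2d, Cxcl9 and Cxcr5 (all 0.98), and that of Batf to Slamf8 (0.99), Dusp2 (0.98) and Ptprcap (0.98). Icos was closest to C130026I21Rik (0.99), Tlr1 (0.99) and Card6 (0.98), and Tnfrsf4 to Cst7 (0.99), H2-Oa (0.99) and Ada (0.97). Maf was closest to Mff (0.88), Cdc37l1 (0.88) and Mme (0.85).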

How the data were processed

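Poly(A) RNA was sequenced on an Ion Torrent PGM. Per the paper's methods, reads were mapped and counted in CLC Genomics Workbench 8 against GRCm38. The submitters' notes also name BWA, HTSeq and mm9, without a role. The authors deposited one table of 14 libraries, a signal equal to reads plus 1 divided by a size factor. In 100% of values it gave whole reads within a relative 1e-06, and DESeq size factors recomputed from these reads equalled those in the table.

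The 10 libraries of proteinuric mice shared a model for the tissues, and 6 lymph nodes a model for the state. Both used limma 3.58.1 (trend, robust) in R 4.3.3 on log2(value + 1), and genes entered at a mean value of 5 or more. DE meant a Benjamini-Hochberg adjusted p under 0.05. Alternatives were edgeR 4.0.16 and DESeq2 1.42.0 on the recovered reads, other pseudocounts (0.5 and 5), no filter or a minimum mean of 10, scaling to reads outside ribosomal RNA, a minimum log2 fold change of 1, a replicate block for the mouse, the compared tissues alone, 7 lymph nodes as one group, and leaving out each library. Removing the filter together with edgeR, the block or a left-out library, and joining the block with the other scaling, were chosen after seeing the data. The tests were tried on simulated data.

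Deviations from tissue means correlated at 0.351 to 0.454 between kidney and TLS of one mouse (3 pairs) and at a median of -0.239 between different mice. Between kidney and lymph node of one mouse they correlated at -0.335 to 0.202 (3 pairs, median 0.0405 between different mice). Between lymph node and TLS it was -0.266 to 0.0254 (2 pairs, median 0.103 between different mice). Centring on tissue means ties the values of different mice to those of one mouse. Exon lengths and positions were from GENCODE M21 and promoters from RefSeq, matched by symbol for Pdcd1, Ctla4, Foxp3, Batf and Tnfrsf4 among the genes measured. Genes named besides the members were those of fixed lists that passed, up to 3 by absolute log2 fold change for each list and comparison, and the 3 closest in pattern to each member tested. Genes given only by their reads (Bcl6, Cd40lg, Tbx21, Gata3 and Cd80), and Pax5, Xbp1, Sdc1, C1qa, C1qb and C1qc among the cell markers, were chosen after their values were seen. The members and lists were chosen with earlier results of these data known. Intervals of single counts and pooled ratios cover counting error only. Some genes that the rule names are not reported here. Whole kidneys of other mice were not analysed here.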

Additional observations from a re-analysis of the deposited data

Results flagged for a closer look

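The lymph node of the young mouse was in none of the comparisons, being 1 library. All 9 members had more reads in it than the 3 that a count of 0 allows. There were 58 reads of Cd4, 27 of Batf, 14 of Icos, 11 of Tnfrsf4, 10 of Pdcd1, 8 of Cd28, 6 of Ctla4, 6 of Foxp3 and 5 of Maf. In normalized reads, Cd4 (51.9) lay below the 3 antibody-positive lymph nodes (53.3 to 58.4) and above the 3 proteinuric ones (14.5 to 38.0), Pdcd1 (8.95) lay below all of both groups (11.1 to 19.9), and Batf (24.2) did too (26.4 to 59.7). Icos (12.5) lay above all of both groups (5.74 to 11.3). With 1 library these differences have no replicate check. Among the 4 kidneys, the 36-week mouse stood apart from the other 3 in normalized reads of Cd4 and of Batf, since it alone held reads of either, 2 and 3. The gap to the next library took a share of 1 of the whole range in both, above the 95% critical value of Dixon's test, on counts at or below the floor. With reads in 1 library alone this share is 1 at any count, so the test cannot tell such a gap from counting chance. In all, 3 groups with reads were checked.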

How the results depend on the processing

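A count of 0 still allows a level of up to 3 reads, which limits Cd28, Ctla4 and Foxp3 in TLS. A minimum mean of 10 left 2 members, both DE between kidney and TLS and between kidney and lymph node. With no filter, 8 members were DE between kidney and lymph node, by limma, by edgeR and with the replicate block. Between lymph node and TLS, all 7 lymph nodes together gave 2 members and 1335 DE genes, and the 17 pan T-cell genes gave 17 calls. For those genes the count was 3 with edgeR, 2 with edgeR and no filter, 6 with DESeq2, 3 with scaling to reads outside ribosomal RNA, 4 with the replicate block, 1 with the block and no filter, and 0 with the block and that scaling. The replicate block changed no call of a member that was tested. Between disease states DESeq2 called 13 genes and edgeR with no filter 6.

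Without single libraries, the DE genes ranged from 534 to 1355 between kidney and TLS, from 486 (without the TLS of the 25-week mouse) to 976 between lymph node and TLS, where 487 were left without the lymph node of the 32-week mouse, and from 0 to 5 between disease states (5 without the antibody-positive lymph node of 29 weeks). Between lymph node and TLS, 0 to 1 members and 3 to 13 pan T-cell genes passed. Maf changed direction, at -0.10 to 1.33 for kidney minus TLS and -1.06 to 0.37 for lymph node minus TLS, and so did Foxp3 for kidney minus TLS with no filter (0.14 without the TLS of the 39-week mouse). For antibody-positive minus proteinuric lymph node the ranges were -0.11 to 0.21 for Pdcd1, -0.27 to 0.089 for Icos, -0.31 to 0.70 for Foxp3 and -0.21 to 0.15 for Maf, and Pdcd1 was at -0.10 with edgeR, -0.063 with edgeR and no filter, -0.076 with DESeq2 and -0.14 with the other scaling. Where values moved, the cause was not tested. DE genes higher in kidney and in TLS numbered 448 and 636, and 169 and 661 with edgeR. Those higher in lymph node and in TLS numbered 125 and 655, but 38 and 747 with edgeR and 31 and 733 with the other scaling. The median of all genes moved to -0.14 (lymph node minus TLS) with edgeR and to 0.12 with the replicate block. Of all values recomputed for the members, 610 kept their direction and side of the threshold, 8 passed in addition, 1 no longer passed and 20 reversed.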

Other observations

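The balance of CD4 to CD8 transcripts, which no comparison above uses, was given by the reads of Cd4 divided by those of Cd8a and Cd8b1 together. It was 1.08, 0.80 and 2.00 in the TLS of the mice of 39, 36 and 25 weeks and 0.263, 0.507 and 0.904 in the proteinuric lymph nodes at 39, 36 and 32 weeks. In the antibody-positive lymph nodes at 28, 29 and 18 weeks it was 0.460, 0.691 and 0.716, and in the young lymph node 0.682. The highest lymph node (0.904) lay above the lowest TLS (0.80), and the value of 2.00 rests on 10 reads of Cd4 and 5 of CD8. In the 2 mice with both tissues the TLS value was above that of the lymph node, 1.08 against 0.263 in the 39-week mouse and 0.80 against 0.507 in the 36-week mouse.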
